A study of Mus musculus with 22 samples.

Results

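The C/EBP and NFI transcription factors were followed here by 8 genes, Cebpa, Cebpb, Cebpd and Cebpg of the C/EBP family and Nfia, Nfib, Nfic and Nfix of the NFI family, out of 34047 genes in the count table. The genes were chosen by symbol and not by their values. At their loci, 111 accessibility windows had 1 of the 8 genes as the closest gene and 224 lay within 50 kb, out of 177956 windows. The cells came from male and female Tbx21RFP-cre mice aged 6 to 10 weeks, in which a red fluorescent protein and Cre are made from the Tbx21 locus that encodes T-bet. All groups carried this allele and were gated as CD11c+ MHCII+ cells that lacked CD64, Ly6C and lineage markers that included CD3 and CD90. Within that gate cDC1 were CD11b- XCR1+, T-bet+ cDC2 were CD11b+ XCR1- RFP+ and T-bet- cDC2 were CD11b+ XCR1- RFP-. RNA-seq covered 3 libraries of each subset from spleen, and from the mesenteric lymph nodes (MLN) 3 of cDC1, 2 of T-bet- cDC2 and 2 of T-bet+ cDC2, with cells pooled from 2 mice for a library. ATAC-seq, in which a transposase cuts open chromatin, covered 2 libraries of 50000 cells of each subset from spleen.

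C/EBP proteins are basic leucine zipper factors that bind DNA as dimers and recognise sites of the TTGCNNAA kind. Cebpa is required for the granulocyte and monocyte progenitor and restrains cell division, Cebpb acts in emergency granulopoiesis and in monocyte survival, Cebpd is induced by inflammatory signals, and Cebpg lacks a strong activation domain and works mainly as a dimer partner. NFI proteins bind a spaced palindrome with TTGGC arms, or a single arm, and Nfia and Nfix are known to act in haematopoietic progenitors, whereas Nfib and Nfic are best known from lung, brain and tooth development.

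RNA libraries held 20993220 to 29006549 counts, and ATAC libraries held 7270164 to 10081555 counts in windows. Labels were checked with defining genes. Tbx21 stood at 17.2 to 24.9 CPM (read counts scaled to library size) in spleen T-bet+ cDC2 against 0.289 to 2.38 CPM in spleen T-bet- cDC2, and at 2.93 to 7.19 against 0.538 to 0.918 CPM in the MLN. The summed level of 6 cDC1 genes was 4944 to 6100 CPM in spleen cDC1 and 146 to 590 CPM in both spleen cDC2 subsets. The spleen libraries did not recover GC-rich transcripts equally. A library was placed in the higher GC class where its deviations from the gene means correlated at over 0.1 (Spearman, across 7635 genes, which are not independent) with transcript GC content, taken over the GC-richest 100 bases. All 3 T-bet+ cDC2 libraries, cDC1 replicates 1 and 2 and T-bet- cDC2 replicate 3 fell in the higher class, and T-bet- cDC2 replicates 1 and 2 and cDC1 replicate 3 in the lower class, so the class was uneven across the subsets. All MLN libraries fell in the lower class. Their correlations still differed, at -0.315 and 0.00131 in T-bet- cDC2 and -0.217 and -0.250 in T-bet+ cDC2. In MLN cDC1 they were -0.177, 0.0155 and 0.0437. The spleen RNA comparisons were therefore also fitted with the class as a term and with the 6 libraries of the higher class alone, the latter chosen after seeing the data. In this last fit T-bet- cDC2 has 1 library, which is assumed to vary like the other groups.

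The 8 windows that carry the accessibility results are shown first, as 150 bases of the plus strand of mm10 (GRCm38), 5′ to 3′. Names give the distance of the window's centre from the gene's most upstream annotated start (GENCODE M21). Capitals mark matches to TTGCNNAA (C/EBP), to TTGGC (NFI) or to TGTGGT (Runx) on either strand. Windows with no capitals had no match to these motifs. The Cebpa -12.5 kb window was added after its values were seen because it was the called window at that locus with a C/EBP match.
Cebpa -12.5 kb (chr7:35106765-35106914): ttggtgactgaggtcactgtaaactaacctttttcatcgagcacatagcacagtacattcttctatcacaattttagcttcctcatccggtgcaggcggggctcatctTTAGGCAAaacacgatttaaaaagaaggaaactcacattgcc
Cebpa +5.7 kb (chr7:35124885-35125034): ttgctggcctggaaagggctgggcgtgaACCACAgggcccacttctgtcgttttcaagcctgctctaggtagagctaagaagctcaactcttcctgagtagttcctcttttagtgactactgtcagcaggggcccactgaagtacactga
Cebpa +44.5 kb (chr7:35163768-35163917): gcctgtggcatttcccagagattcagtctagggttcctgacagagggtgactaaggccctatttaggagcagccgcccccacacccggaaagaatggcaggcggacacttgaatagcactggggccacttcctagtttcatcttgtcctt
Cebpd -63 bases (chr16:15887149-15887298): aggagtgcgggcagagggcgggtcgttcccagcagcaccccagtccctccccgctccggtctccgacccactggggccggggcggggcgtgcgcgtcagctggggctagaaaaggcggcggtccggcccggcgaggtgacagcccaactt
Nfia +156.4 kb (chr4:97929106-97929255): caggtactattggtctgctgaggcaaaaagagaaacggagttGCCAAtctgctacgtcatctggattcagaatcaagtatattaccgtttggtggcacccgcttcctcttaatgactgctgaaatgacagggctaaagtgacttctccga
Nfib +77.4 kb (chr4:82628239-82628388): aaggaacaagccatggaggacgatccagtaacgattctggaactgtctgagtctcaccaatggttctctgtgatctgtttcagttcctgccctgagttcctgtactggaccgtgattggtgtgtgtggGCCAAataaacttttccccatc
Nfib +88.3 kb (chr4:82617406-82617555): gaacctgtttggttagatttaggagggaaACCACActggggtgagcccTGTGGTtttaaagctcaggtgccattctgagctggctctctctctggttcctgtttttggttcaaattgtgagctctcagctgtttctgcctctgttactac
Nfic +41.6 kb (chr10:81413959-81414108): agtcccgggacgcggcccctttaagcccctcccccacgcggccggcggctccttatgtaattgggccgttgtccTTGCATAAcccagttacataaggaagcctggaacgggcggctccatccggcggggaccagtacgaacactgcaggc

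Cebpa mRNA was lowest in T-bet+ cDC2 among spleen libraries of the higher class, and was higher in T-bet- cDC2 than in cDC1 of the MLN. In spleen, Cebpa stood at 1.03, 1.09 and 1.45 CPM in T-bet+ cDC2, at 2.89, 3.65 and 8.16 CPM in T-bet- cDC2 and at 3.24, 4.40 and 0.339 CPM in cDC1. The T-bet+ and T-bet- libraries did not overlap, whereas cDC1 spanned both because its single lower-class library had the lowest value. Between these subsets the log2 fold was -2.04 ± 0.77 (SE) with an adjusted p of 0.192 (edgeR quasi-likelihood test, Benjamini-Hochberg over all genes tested). Cebpa was lower in T-bet+ cDC2 by -3.44 ± 0.61 when the fit included the class (adjusted p = 0.0105), and by -2.78 ± 0.44 in the higher class alone (adjusted p = 0.00926). Against cDC1, T-bet+ cDC2 differed by -1.16 ± 0.76 (adjusted p = 0.359), by -1.42 with the class term (adjusted p = 0.0611) and by -1.68 ± 0.39 in the higher class alone (adjusted p = 0.0137). The fold of T-bet- cDC2 over cDC1 was 0.88 ± 0.75 in spleen (adjusted p = 0.489) and 2.02 ± 0.57 with the class term (adjusted p = 0.0314), but 1.10 ± 0.49 in the higher class alone (adjusted p = 0.229). Cebpa was among the genes that moved with the class, with a level 11.3 times higher in the higher than in the lower class within cDC1 and 2.49 times within T-bet- cDC2. The GC-richest stretch of its transcript ranked at percentile 92.1 of the tested genes.

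In the MLN, where all libraries were of the lower class, Cebpa stood at 1.28 and 0.925 CPM in T-bet+ cDC2, at 1.78 and 2.45 CPM in T-bet- cDC2 and at 0.446, 0.520 and 0.291 CPM in cDC1. The 3 subsets did not overlap and fell in the order T-bet- cDC2, T-bet+ cDC2, cDC1. In spleen the means of these subsets were 4.90, 1.19 and 2.66 CPM, with T-bet+ cDC2 and not cDC1 lowest. The fold of T-bet- cDC2 over cDC1 was 2.38 ± 0.56 with an adjusted p of 0.0495, the only member called in that comparison. This call was lost when any 1 of the 7 MLN libraries was left out, with adjusted p between 0.0553 and 0.224. It was also lost with the library's GC correlation as a term, at 2.42 (adjusted p = 0.102). The fold of T-bet+ over T-bet- cDC2 was -0.97 ± 0.61 (adjusted p = 0.693) and that of T-bet+ cDC2 over cDC1 was 1.41 ± 0.56 (adjusted p = 0.193).

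Cebpb and Cebpd, the 2 members best known as inducible factors, each had their highest level in the spleen T-bet- cDC2 library of the higher class. For Cebpb the lower-class T-bet- cDC2 replicate 2, at 1.64 CPM, stood above every other library of the higher class. Cebpb stood at 1.43, 0.788 and 1.04 CPM in spleen T-bet+ cDC2 and at 1.16, 1.64 and 3.70 CPM in T-bet- cDC2, which overlapped. Spleen cDC1 held 14, 0 and 1 Cebpb counts, below every cDC2 library. The fold of T-bet- cDC2 over cDC1 was 3.35 ± 1.08 with an adjusted p of 0.0666, and it passed with the class as a term, at 4.01 ± 1.04 (adjusted p = 0.0214), and under DESeq2 (adjusted p = 0.00511). It did not pass in the higher class alone, at 3.69 ± 1.28 (adjusted p = 0.115). The fold of T-bet+ cDC2 over cDC1 was 2.35 ± 1.06 (adjusted p = 0.168), with 2.04 under the class term (adjusted p = 0.163) and 1.91 in the higher class alone (adjusted p = 0.252). That of T-bet+ over T-bet- cDC2 was -0.998 ± 0.96 (adjusted p = 0.633), -1.97 with the class term (adjusted p = 0.432) and -1.77 in the higher class alone (adjusted p = 0.487). Cebpb also followed the class, with a level 5.86 times higher in the higher class within cDC1, on the few counts given, and 2.64 times within T-bet- cDC2. Its GC-richest stretch had the highest rank of the members, at percentile 98.0 of the tested genes. Besides Cebpa, the others ranked at 94.0 (Cebpg), 89.7 (Nfib and Nfix), 84.2 (Nfia), 74.3 (Cebpd) and 60.0 (Nfic). These ranks did not order the members by how far they moved with the class, and the part of GC content was not tested. In the MLN Cebpb was not tested because of its low counts. There T-bet- cDC2 held 31 Cebpb counts over 2 libraries and cDC1 held 2 over 3, a ratio of 20.9 after scaling by library size (95% interval of counting error only, 5.31 to 180).

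Cebpd spread widely within subsets. In spleen it stood at 18.4, 8.48 and 11.3 CPM in T-bet+ cDC2, at 0.482, 1.85 and 29.6 CPM in T-bet- cDC2 and at 8.34, 4.36 and 0.532 CPM in cDC1. The high value in T-bet- cDC2 and the low value in cDC1 were those of the library of the other class, and the level was 25.4 times higher in the higher class within T-bet- cDC2 and 11.9 times within cDC1. T-bet+ and T-bet- cDC2 differed by 0.26 ± 1.24 (adjusted p = 0.933). It was 3.38 without T-bet- cDC2 replicate 3 and -0.95 ± 0.56 with the class as a term (adjusted p = 0.489), and -1.22 ± 0.46 in the higher class alone (adjusted p = 0.217), so its sign rested on that library and on the class. Against cDC1, Cebpd in T-bet- cDC2 differed by 1.27 ± 1.27 (adjusted p = 0.560), and rose by 1.81 ± 0.54 with the class term (adjusted p = 0.0402) and by 2.23 ± 0.50 in the higher class alone (adjusted p = 0.0210). Cebpd in T-bet+ cDC2 relative to cDC1 was 1.53 ± 1.27 (adjusted p = 0.482), 0.86 with the class term (adjusted p = 0.285) and 1.00 in the higher class alone (adjusted p = 0.119). In the MLN every library stood between 0.0406 and 1.15 CPM, near the 0.482, 1.85 and 0.532 CPM of the spleen libraries of the lower class.

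Cebpg, the dimer partner, had group means of 3.28 to 4.83 CPM per kb of exon in spleen and 1.84 to 2.24 CPM per kb in the MLN. Per length it was the most abundant C/EBP gene in every group except spleen T-bet+ cDC2, where the mean of Cebpd was 3.40 CPM per kb and that of Cebpg 3.28. Its levels were 15.5, 18.0 and 21.7 CPM in spleen T-bet+ cDC2, 9.34, 12.7 and 48.5 CPM in T-bet- cDC2 and 32.7, 39.1 and 9.72 CPM in cDC1. T-bet+ cDC2 lay between the extremes of both other subsets, and in each of these the library of the higher class was above and that of the lower class below them. Cebpg in T-bet+ relative to T-bet- cDC2 was -0.35 ± 0.65 (adjusted p = 0.813), -1.31 ± 0.27 with the class as a term (adjusted p = 0.0221) and -1.40 ± 0.28 in the higher class alone (adjusted p = 0.0268). Against cDC1 the corresponding folds were -0.56 ± 0.65 (adjusted p = 0.636), -0.999 ± 0.24 (adjusted p = 0.0128) and -0.96 ± 0.24 (adjusted p = 0.0190). T-bet- cDC2 and cDC1 differed by -0.21 ± 0.65 (adjusted p = 0.869), by 0.31 with the class term (adjusted p = 0.445) and by 0.44 in the higher class alone (adjusted p = 0.470). The MLN libraries stood between 7.63 and 14.2 CPM, with all 3 subsets overlapping.

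**Figure D1:**
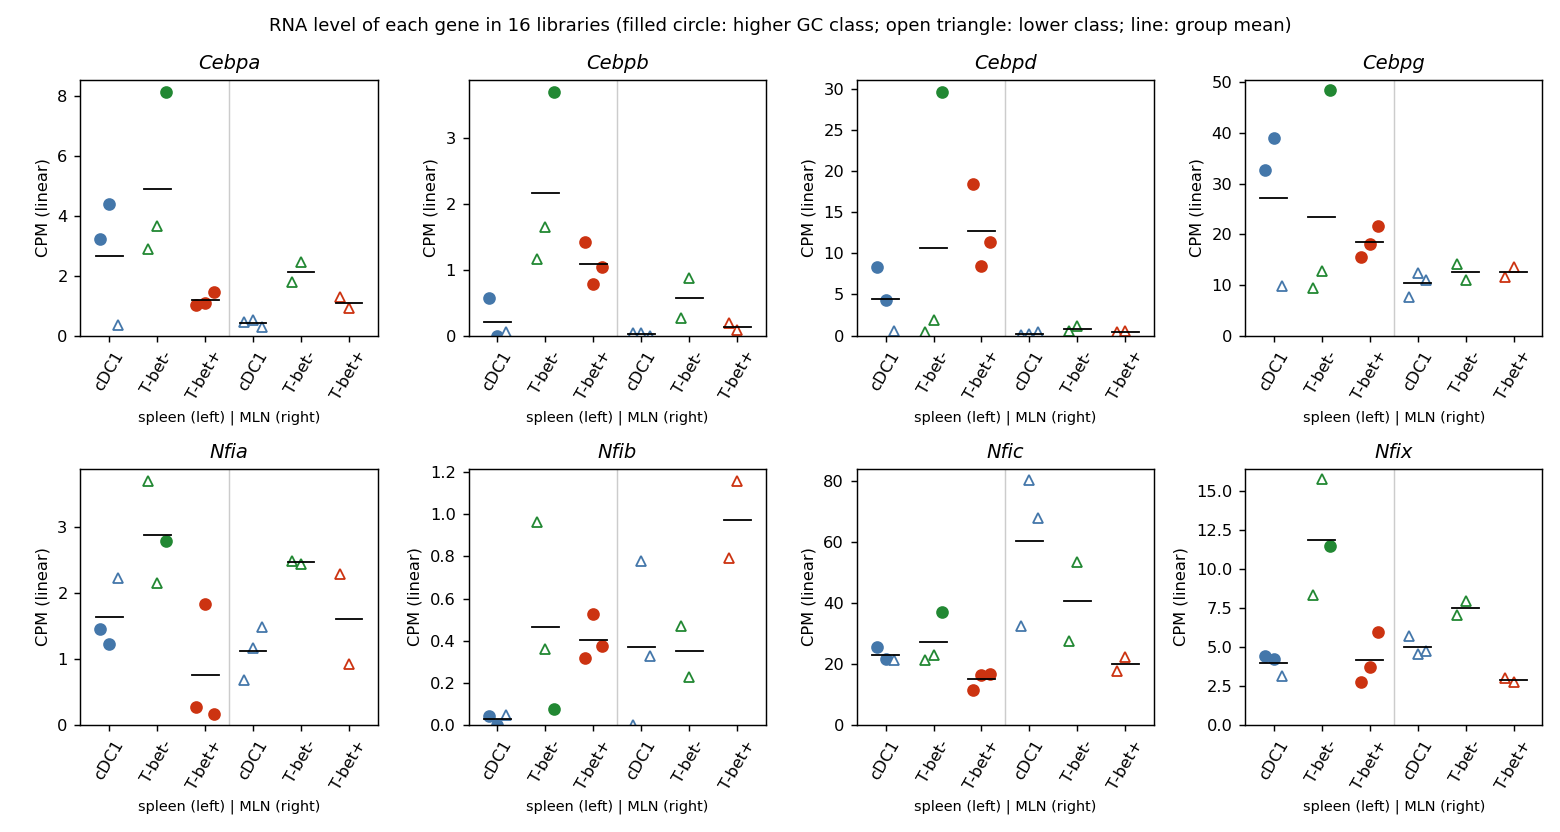
RNA level in CPM (linear axis from 0) of the 8 genes in the 16 libraries, by subset, with spleen left and MLN right in each panel. Filled circles are libraries of the higher GC class, open triangles those of the lower class and lines are group means. For Cebpa, Cebpd and Cebpg the spleen T-bet- cDC2 library of the higher class is above the other 2 of its group, whereas Nfix is highest in T-bet- cDC2 in both classes and both tissues.

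Nfix was the member whose level separated T-bet- cDC2 from both other subsets in both tissues. In spleen it stood at 8.33, 15.7 and 11.4 CPM in T-bet- cDC2, at 2.73, 3.71 and 5.94 CPM in T-bet+ cDC2 and at 4.41, 4.24 and 3.14 CPM in cDC1. Every T-bet- library was above all libraries of the other 2 subsets, which overlapped. In the MLN it stood at 7.03 and 7.96 CPM in T-bet- cDC2, at 2.97 and 2.74 CPM in T-bet+ cDC2 and at 5.68, 4.55 and 4.73 CPM in cDC1, and the subsets did not overlap. In spleen Nfix was higher in T-bet- cDC2 than in cDC1, by 1.59 ± 0.38 on the log2 scale with an adjusted p of 0.0202. The call held with the class as a term, at 1.66 ± 0.42 (adjusted p = 0.0178). It was lost in the higher class alone, at 1.41 ± 0.49 (adjusted p = 0.119), and without cDC1 replicate 1, 2 or 3 or T-bet- cDC2 replicate 2, when adjusted p was 0.0554 to 0.0747 and the fold over all such fits 1.30 to 1.79.

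Between T-bet+ and T-bet- cDC2, Nfix differed by -1.52 ± 0.38 in spleen with an adjusted p of 0.0522, just outside the threshold, and by -1.57 under DESeq2 with an adjusted p of 0.00395. With the class term it was -1.64 ± 0.46 (adjusted p = 0.0803), and in the higher class alone -1.47 ± 0.45 (adjusted p = 0.124). In the MLN the same fold was -1.42 ± 0.36 with an adjusted p of 0.297, and 0.0497 under DESeq2. The level of T-bet+ cDC2 relative to cDC1 was 0.07 ± 0.38 in spleen (adjusted p = 0.930; 0.979 with the class term and 0.934 in the higher class alone) and -0.78 ± 0.34 in the MLN (adjusted p = 0.222). Nfix moved little with the GC class, with a ratio of 1.38 within cDC1 and 0.951 within T-bet- cDC2.

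Nfic was the most abundant NFI gene, with group means of 2.25 to 4.08 CPM per kb in spleen and 3.02 to 9.07 CPM per kb in the MLN. In spleen it stood at 11.6, 16.4 and 16.8 CPM in T-bet+ cDC2, at 21.2, 22.8 and 37.05 CPM in T-bet- cDC2 and at 25.4, 21.6 and 21.4 CPM in cDC1. T-bet+ cDC2 was below every other spleen library, and the other 2 subsets overlapped. Nfic in T-bet+ over T-bet- cDC2 was -0.85 ± 0.28 (adjusted p = 0.134), -1.11 ± 0.28 with the class as a term (adjusted p = 0.0518) and -1.32 ± 0.30 in the higher class alone (adjusted p = 0.0469). The fold of T-bet+ cDC2 over cDC1 was -0.61 ± 0.28 (adjusted p = 0.184), -0.76 with the class term (adjusted p = 0.0563) and -0.65 in the higher class alone (adjusted p = 0.109). T-bet- cDC2 over cDC1 was 0.25 ± 0.28 (adjusted p = 0.617), 0.35 with the class term (adjusted p = 0.394) and 0.66 in the higher class alone (adjusted p = 0.292). In the MLN Nfic stood at 17.8 and 22.3 CPM in T-bet+ cDC2, at 27.5 and 53.5 CPM in T-bet- cDC2 and at 32.4, 80.4 and 67.6 CPM in cDC1, with T-bet+ cDC2 again lowest. The fold of T-bet+ cDC2 over cDC1 was -1.54 ± 0.43 there (adjusted p = 0.0789), and passed under DESeq2 (adjusted p = 0.00969). Relative to T-bet- cDC2 the MLN fold was -1.04 ± 0.45 (adjusted p = 0.534).

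Nfia and Nfib were at the lower end of the range. Nfia stood at 0.277, 1.84 and 0.166 CPM in spleen T-bet+ cDC2, at 3.71, 2.16 and 2.79 CPM in T-bet- cDC2 and at 1.46, 1.23 and 2.22 CPM in cDC1. T-bet+ cDC2 was below all T-bet- libraries, and its second replicate lay within the range of cDC1. Nfia in T-bet+ over T-bet- cDC2 was -1.91 ± 0.80 (adjusted p = 0.236), -1.65 with the class as a term (adjusted p = 0.436) and -1.87 in the higher class alone (adjusted p = 0.447). Over cDC1 the Nfia folds were -1.09 for T-bet+ cDC2 (adjusted p = 0.406) and 0.82 for T-bet- cDC2 (adjusted p = 0.535), with adjusted p of 0.470 to 0.677 in both class fits. Of the main and class fits, edgeR tested Nfib in spleen only in the higher class alone, because of its low counts. These were 8, 14 and 9 in T-bet+ cDC2, 20, 7 and 2 in T-bet- cDC2 and 1, 0 and 1 in cDC1. DESeq2 called Nfib for spleen T-bet- cDC2 over cDC1 and not in the other spleen comparisons. All cDC1 libraries were below all cDC2 libraries. Pooled over libraries, the ratio to cDC1 after scaling by library size was 14.2 for T-bet+ cDC2 (95% interval 3.62 to 123) and 15.1 for T-bet- cDC2 (3.83 to 131), both for counting error only. In MLN cDC1 Nfib had 0, 18 and 9 counts, within the range of the 6 to 30 counts of the MLN cDC2 libraries except for the library at 0.

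Over all 8 genes, 0 members were called between spleen T-bet+ and T-bet- cDC2, where 5.38% of all tested genes were. Of the members 4 had an unadjusted p under 0.05 (Cebpa, Nfia, Nfic and Nfix), against 2664 of 14377 genes. DESeq2 called 1 member (Nfix), against 565 genes higher and 847 lower of 17060. Between T-bet+ cDC2 and cDC1 of spleen edgeR called 0 members, against 18.2% of all genes. There 0 members had an unadjusted p under 0.05, against 4346 of 14377 genes. DESeq2 called 0, against 1737 genes higher and 1574 lower of 18296. Between T-bet- cDC2 and cDC1 edgeR called 1 member (Nfix), against 15.9% of all genes. DESeq2 called 3 (Cebpb, Nfib and Nfix), against 1781 genes higher and 1158 lower of 17678. With the class as a term 2, 1 and 4 members were called in these comparisons, against backgrounds of 4.67%, 23.3% and 19.1%. In the higher class alone 3, 2 and 1 members were called, against 4.15%, 20.4% and 10.4%. In the MLN edgeR called 0 of 15298 genes between T-bet+ and T-bet- cDC2 (0.00%), and so 0 members. Of these genes 1444 had an unadjusted p under 0.05, among them 1 member (Nfix). DESeq2 called 1 member (Nfix), against 110 genes higher and 238 lower of 15127. For T-bet+ cDC2 over cDC1 of the MLN the background was 6.22%, with 0 members called by edgeR. There 3 members had an unadjusted p under 0.05, against 3392 of 15298 genes. DESeq2 called 1 (Nfic), against 1136 genes higher and 896 lower of 16676. For T-bet- cDC2 over cDC1 of the MLN the edgeR background was 5.79%, with 1 member called by either tool (Cebpa). DESeq2 called 1093 genes higher and 650 lower of 17192 there. The spleen comparisons share libraries with each other, as do those of the MLN.

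**Figure D2:**
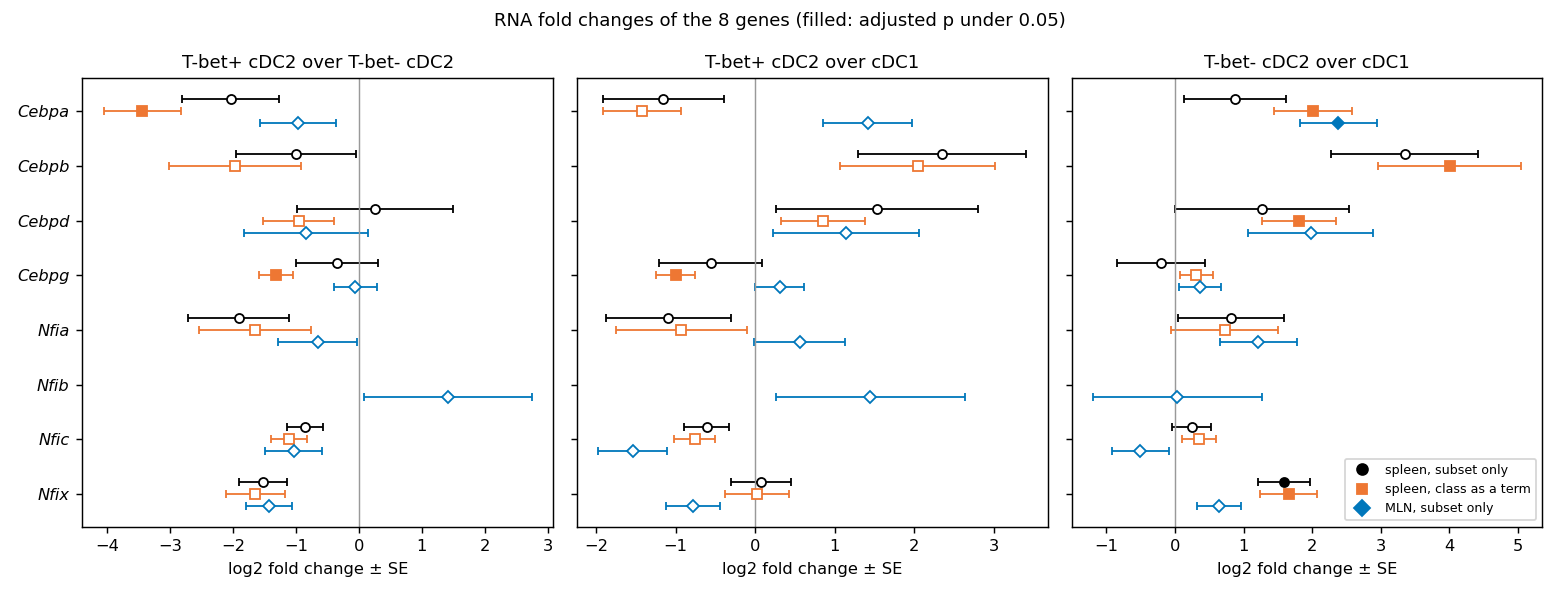
Log2 fold change ± SE of each gene in the 3 subset comparisons, for spleen without and with the library class as a term and for the MLN. Filled symbols mark an adjusted p under 0.05, and a missing symbol marks a gene that was not tested. Without the class term the filled symbols are Nfix in spleen and Cebpa in the MLN, both for T-bet- cDC2 over cDC1.

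Between tissues, Cebpa was higher and Nfic lower in spleen than in MLN cDC1. The fold of spleen over MLN was 2.66 ± 0.72 for Cebpa (adjusted p = 0.0304) and -1.40 ± 0.36 for Nfic (adjusted p = 0.0234), the 2 members called against 11.7% of all genes. Both calls were lost when spleen cDC1 replicate 1 or 2 or MLN cDC1 replicate 2 or 3 was left out, with adjusted p of 0.0895 to 0.120 for Cebpa and 0.0716 to 0.119 for Nfic. Cebpd differed by 4.28 ± 1.34 in cDC1 (adjusted p = 0.0522), by 3.66 ± 1.46 in T-bet- cDC2 (adjusted p = 0.146) and by 4.73 ± 1.56 in T-bet+ cDC2 (adjusted p = 0.0862). DESeq2 called Cebpd in all 3 subsets, with adjusted p of 0.00137, 0.0220 and 0.00216. It called 1530 genes higher and 1983 lower of 16177 in cDC1 and 938 and 1305 of 16177 in T-bet- cDC2. In T-bet+ cDC2 it called 1111 and 1690 of 15523. In T-bet- and T-bet+ cDC2 edgeR called 0 members, against 5.95% and 5.09% of all genes, with 1 and 2 at an unadjusted p under 0.05. Over all genes 4108 and 4465 of 16795 had such an unadjusted p. All MLN libraries were in the lower GC class and 6 of the spleen libraries in the higher, so for Cebpa, Cebpb, Cebpd and Cebpg, which followed the class, tissue and class cannot be told apart fully. With the library's GC correlation as a term, the fold in cDC1 was 1.72 for Cebpa (adjusted p = 0.0525) and -1.52 for Nfic (adjusted p = 0.00572). With the same term the Cebpd fold was 2.82 ± 0.59 in cDC1 (adjusted p = 0.00757), but 1.56 ± 0.60 in T-bet- cDC2 (adjusted p = 0.106) and 1.35 ± 0.70 in T-bet+ cDC2 (adjusted p = 0.332). The test of whether the T-bet+ over T-bet- fold differed between tissues called 0 members, against 0.00595% of all genes. There 0 members had an unadjusted p under 0.05, against 847 of 16795 genes. DESeq2 called 0 members, against 12 genes higher and 31 lower of 14213. Markers of other cells and of DC maturation also differed between the tissues. The summed level of 8 neutrophil genes was 30.1 to 41.4 CPM in spleen and 0 to 14.0 CPM in MLN cDC1, and 73.5 to 118 CPM in spleen and 0.414 to 2.93 CPM in MLN cDC2, with 2 of the 8 genes at 0 in each MLN subset. Summed levels of 4 genes of mature DC (Ccr7, Fscn1, Ccl22 and Relb) were 1563 to 2441 CPM in spleen and 3604 to 12721 CPM in MLN cDC1, 4373 to 5010 against 10609 to 11963 CPM in T-bet- cDC2, and overlapped in T-bet+ cDC2. Their part in the tissue differences was not tested. In these bulk libraries fewer cells expressing a gene and less RNA per cell cannot be told apart.

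Genes that control or pair with the C/EBP and NFI proteins were taken from a list of 13 genes. Of 11 tested, 0 were called between spleen T-bet+ and T-bet- cDC2 by edgeR and 0 by DESeq2. In edgeR 2 had an unadjusted p under 0.05, and the median log2 fold was 0.24 against -0.01 over all genes. Of all genes edgeR called 5.38%, and 2664 of 14377 had an unadjusted p under 0.05. Trib1 was called lower in T-bet+ than in T-bet- cDC2 with the class as a term, by -1.67 ± 0.32 (adjusted p = 0.0161), and in the higher class alone, by -1.41 ± 0.25 (adjusted p = 0.0162), from -0.80 ± 0.49 without the class (adjusted p = 0.437). Trib1, the adaptor that targets C/EBP alpha for degradation, stood at 56.5, 56.0 and 53.7 CPM in spleen T-bet+ cDC2 and at 259, 397 and 92.9 CPM in cDC1. Every T-bet+ library was below every cDC1 library, and the fold was -2.17 ± 0.51 (adjusted p = 0.0157). It was called with the class as a term and in the higher class alone, was lost with the replicate number as a block (adjusted p = 0.0506), and was lost without cDC1 replicate 2 or any 1 of the 3 T-bet+ libraries (adjusted p = 0.0524 to 0.0633). In the MLN Trib1 was again lower in T-bet+ cDC2 than in cDC1, by -2.81 ± 0.54 (adjusted p = 0.0234), a call lost with the replicate block (adjusted p = 0.0743) or the GC term (adjusted p = 0.119), and without cDC1 replicate 3 or either T-bet+ library (adjusted p = 0.0739 to 0.128). Ddit3, an inhibitory dimer partner of C/EBP proteins that is induced by stress, was higher than in spleen cDC1 in T-bet+ cDC2 (1.23 ± 0.30, adjusted p = 0.0174) and in T-bet- cDC2 (0.99 ± 0.29, adjusted p = 0.0489). The first Ddit3 call held in both class fits and was lost without cDC1 replicate 2 or 3 or any 1 T-bet+ library (adjusted p = 0.0539 to 0.0864). The second was lost with the class as a term (adjusted p = 0.0667), in the higher class alone (0.40 ± 0.31, adjusted p = 0.509) and without any 1 of the 9 libraries except T-bet- cDC2 replicate 3 (adjusted p of at least 0.0509). Batf, a basic leucine zipper factor that pairs with Jun proteins, was higher in T-bet- cDC2 than in cDC1 (0.87 ± 0.25, adjusted p = 0.0412) and with the class as a term (adjusted p = 0.0458). That call was lost in the higher class alone, at 0.69 ± 0.31 (adjusted p = 0.235), and again without any 1 library except T-bet- cDC2 replicate 3 (adjusted p = 0.0631 to 0.179). In the higher class alone Trib1 was the 1 partner gene called between T-bet- cDC2 and cDC1, at -1.15 ± 0.30 (adjusted p = 0.0416).

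Of 20 genes known as C/EBP targets in myeloid cells, 19 were tested in spleen. The list was drawn up with earlier results of these data known. The study had already reported Csf1r, Lyz2 and Cd14 as genes of T-bet- cDC2. The counts below are therefore a description, and their distance from the share over all genes is not a test of C/EBP activity. Between T-bet+ and T-bet- cDC2, 0 were higher and 5 lower in T-bet+ cDC2, against 5.38% of all genes called, with a list median of -0.23 against -0.01 over all genes. The 5 were Lyz2, which encodes a lysozyme, Csf1r and Csf3r, the receptors for M-CSF and G-CSF, Il1rn, the interleukin 1 receptor antagonist, and Cd14, the lipopolysaccharide co-receptor. Cd14 is named beyond the 4 smallest adjusted p because it completes the 5, a choice made after its values were seen. Lyz2 stood at 250, 172 and 230 CPM in T-bet+ cDC2 and at 10616, 8776 and 6776 CPM in T-bet- cDC2, a fold of -5.32 ± 0.30 (adjusted p = 4.4e-05). Csf1r stood at 263, 206 and 237 CPM against 3047, 1880 and 2419 CPM, a fold of -3.38 ± 0.25 (adjusted p = 0.000139). Csf3r stood at 9.11, 8.81 and 11.3 CPM against 134, 107 and 128 CPM, a fold of -3.66 ± 0.32 (adjusted p = 0.00038). None of these groups overlapped, and the same 5 genes were called with the class as a term and in the higher class alone. Against cDC1, 9 targets were higher and 2 lower in T-bet+ cDC2 (Lyz2 and Cd14 lower; median 1.13), against 18.2% of all genes called in either direction, and 10 were higher in T-bet- cDC2 (median 1.69), against 15.9%. In the MLN 15 targets were tested. There edgeR called 0 between T-bet+ and T-bet- cDC2, with 6 at an unadjusted p under 0.05, and DESeq2 called 5, all lower in T-bet+ cDC2. Over all genes 1444 of 15298 had such an unadjusted p, and DESeq2 called 110 higher and 238 lower of 15127. Csf1r stood at 197 and 89.0 CPM against 1325 and 972 CPM. Over MLN cDC1, 3 targets were higher in T-bet+ cDC2, against 6.22% of all genes called, and 6 in T-bet- cDC2, against 5.79%.

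Markers of other cells moved with some of these groups. The summed level of 8 monocyte and macrophage genes was 356 to 433 CPM in spleen T-bet+ cDC2, 377 to 614 CPM in T-bet- cDC2 and 16.2 to 20.6 CPM in cDC1, where 1 of the 8 was at 0. The summed level of 8 neutrophil genes, 5 of which are also on the target list, was 91.1 to 100.7 CPM in T-bet+ and 73.5 to 118 CPM in T-bet- cDC2 and 30.1 to 41.4 CPM in cDC1. Neither summed level separated T-bet+ from T-bet- cDC2 in spleen, but a sum can be led by its most abundant gene. Csf1r and Lyz2, which the study links to monocytes and macrophages, were lower in T-bet+ cDC2, as given above. The 3 B cell genes (Cd79a, Ms4a1 and Pax5) summed to 23.1 to 33.6 CPM in T-bet+ and 2.84 to 6.68 CPM in T-bet- cDC2. For 4 plasmacytoid DC genes the sums were 43.2 to 56.0 and 64.1 to 92.8 CPM. No gene of these lists was at 0 in all libraries of a spleen cDC2 subset. In the MLN the sum of the monocyte and macrophage genes did separate them, at 198 to 365 CPM in T-bet+ and 139 to 161 CPM in T-bet- cDC2. It stood at 9.98 to 18.8 CPM in cDC1. Csf1r went the other way between the MLN cDC2 subsets, as given above. The B cell genes summed there to 29.4 to 34.1 and 10.9 to 19.5 CPM in T-bet+ and T-bet- cDC2, and 6 fibroblast and endothelial genes to 74.8 to 92.8 and 33.4 to 36.5 CPM. Their part in the results was not tested.

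Across all 16 libraries, the profile of each gene was compared with those of about 11085 expressed genes by Pearson's r of log2 CPM, as a description over libraries that share subset, tissue and GC class. The closest gene was Abhd12 for Cebpd (r = 0.97), Atp6v1b2 for Nfic (0.95), Ltb4r1 for Cebpb (0.93), Plod3 for Nfix (0.93), Hat1 for Nfib (0.93), Crk for Cebpg (0.90), Mettl9 for Cebpa (0.89) and Clec5a for Nfia (0.85). Among the members themselves the highest r was 0.80, between Cebpg and Cebpd, and the lowest was -0.44, between Nfic and Cebpd. These high values were found among many genes, and Cebpd and Cebpg are both genes that followed the GC class.

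A spleen window was called where its adjusted p was under 0.01 and its absolute log2 fold over 0.5. Of the 111 windows closest to a member 105 were tested. Between T-bet+ and T-bet- cDC2, 2 were higher and 4 lower in T-bet+ cDC2, against 6.28% of all windows called in either direction. Over cDC1, 16 were higher and 9 lower in T-bet+ cDC2 (background 23.0%), and 12 were higher and 8 lower in T-bet- cDC2 (background 17.9%). The number called was thus close to the background in each comparison. Within 50 kb, 211 windows were tested, with 2 higher and 6 lower in T-bet+ than in T-bet- cDC2. Neighbouring windows can share reads and are not independent.

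Most windows at Cebpd were more accessible in cDC2 than in cDC1. Of the 9 windows closest to it 6 were higher in T-bet+ cDC2 than in cDC1 (background 23.0%) and 6 in T-bet- cDC2 (background 17.9%). Those at -581, -63, +434 and +801 bases, called in both comparisons, lie in the same peak and are not separate observations. The window over its start, at -63 bases, had normalized counts of 712 and 576 in T-bet- cDC2, 346 and 365 in T-bet+ cDC2 and 221 and 170 in cDC1. The 3 subsets did not overlap and fell in the order T-bet- cDC2, T-bet+ cDC2, cDC1. The log2 folds were -0.86 ± 0.16 for T-bet+ over T-bet- cDC2 (adjusted p = 7.6e-05), 0.86 ± 0.17 for T-bet+ cDC2 over cDC1 (adjusted p = 3.9e-05) and 1.72 ± 0.17 for T-bet- cDC2 over cDC1 (adjusted p = 5.5e-13). Without T-bet- cDC2 replicate 1 the first had an adjusted p of 0.0192, and without cDC1 replicate 2 the second had 0.0167. A second window, at +2.9 kb, had counts of 191 and 220 in T-bet- cDC2, 91.9 and 104 in T-bet+ cDC2 and 107 and 85.1 in cDC1, so T-bet+ cDC2 lay with cDC1. There T-bet+ differed from T-bet- cDC2 by -1.07 ± 0.21 (adjusted p = 0.00019), a call lost without T-bet- cDC2 replicate 2 (adjusted p = 0.0140). The antisense neighbour Spidr starts near Cebpd, and the window at +2.9 kb is assigned to both genes. The letters of the -63 window held no match to the C/EBP or NFI motif. A C/EBP match was held by 0 of the 14 windows within 50 kb of Cebpd, against 5.89% of all windows.

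At Cebpa, the +5.7 kb window downstream of the gene had counts of 145 and 116 in T-bet+ cDC2, 111 and 118 in T-bet- cDC2 and 50.2 and 43.7 in cDC1. Both cDC2 subsets were above cDC1 and overlapped each other, with folds over cDC1 of 1.47 ± 0.26 (adjusted p = 2.9e-06) and 1.28 ± 0.26 (adjusted p = 6.6e-05). The +44.5 kb window, whose closest gene is Gm35665, went another way, with 7.66 and 6.44 in T-bet+ cDC2, 44.5 and 40.1 in T-bet- cDC2 and 56.5 and 55.2 in cDC1. T-bet+ cDC2 was lower there than T-bet- cDC2 by -2.56 ± 0.43 (adjusted p = 7.8e-06) and lower than cDC1 by -2.97 ± 0.42 (adjusted p = 2.1e-08). A myeloid enhancer of Cebpa is known about 37 kb downstream, and this is the nearest of the windows to it but does not lie on it. The -12.5 kb window, which holds the C/EBP match shown in capitals above, had 30.4 and 39.2 in T-bet- cDC2, 20.1 and 13.8 in T-bet+ cDC2 and 6.27 and 9.20 in cDC1, and was higher in T-bet- cDC2 than in cDC1 by 2.17 (adjusted p = 0.00019; 0.0128 without cDC1 replicate 1, when the call was lost). It was the only 1 of the 20 windows within 50 kb with such a match, against 5.89% of all windows. No window analysed here lay within 2 kb of the start of Cebpa or Cebpg, whereas 65.0% of 9126 protein-coding tested genes with a RefSeq promoter entry had such a window, so accessibility at these starts was not analysed here. No window had Cebpg as its closest gene.

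At Cebpb, 0 of the 7 closest windows were called in any of the 3 comparisons. The window over the start had counts of 141 and 145 in cDC1, 167 and 220 in T-bet- cDC2 and 214 and 157 in T-bet+ cDC2. The cDC2 subsets overlapped. The -8.0 kb window, whose closest gene is Tmem189, had 11.5 and 5.52 in T-bet+ cDC2, 33.6 and 44.6 in T-bet- cDC2 and 19.9 and 29.9 in cDC1. T-bet+ cDC2 was lowest there, by -2.20 against T-bet- cDC2 (adjusted p = 0.00019) and by -1.53 against cDC1 (adjusted p = 0.0079). The first call was lost without T-bet+ cDC2 replicate 2 (adjusted p = 0.0120). The second was lost under DESeq2 (adjusted p = 0.0585), with only the libraries compared (adjusted p = 0.0103), and without cDC1 replicate 2 (adjusted p = 0.130) or T-bet+ cDC2 replicate 2 (adjusted p = 0.132).

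**Figure D3:**
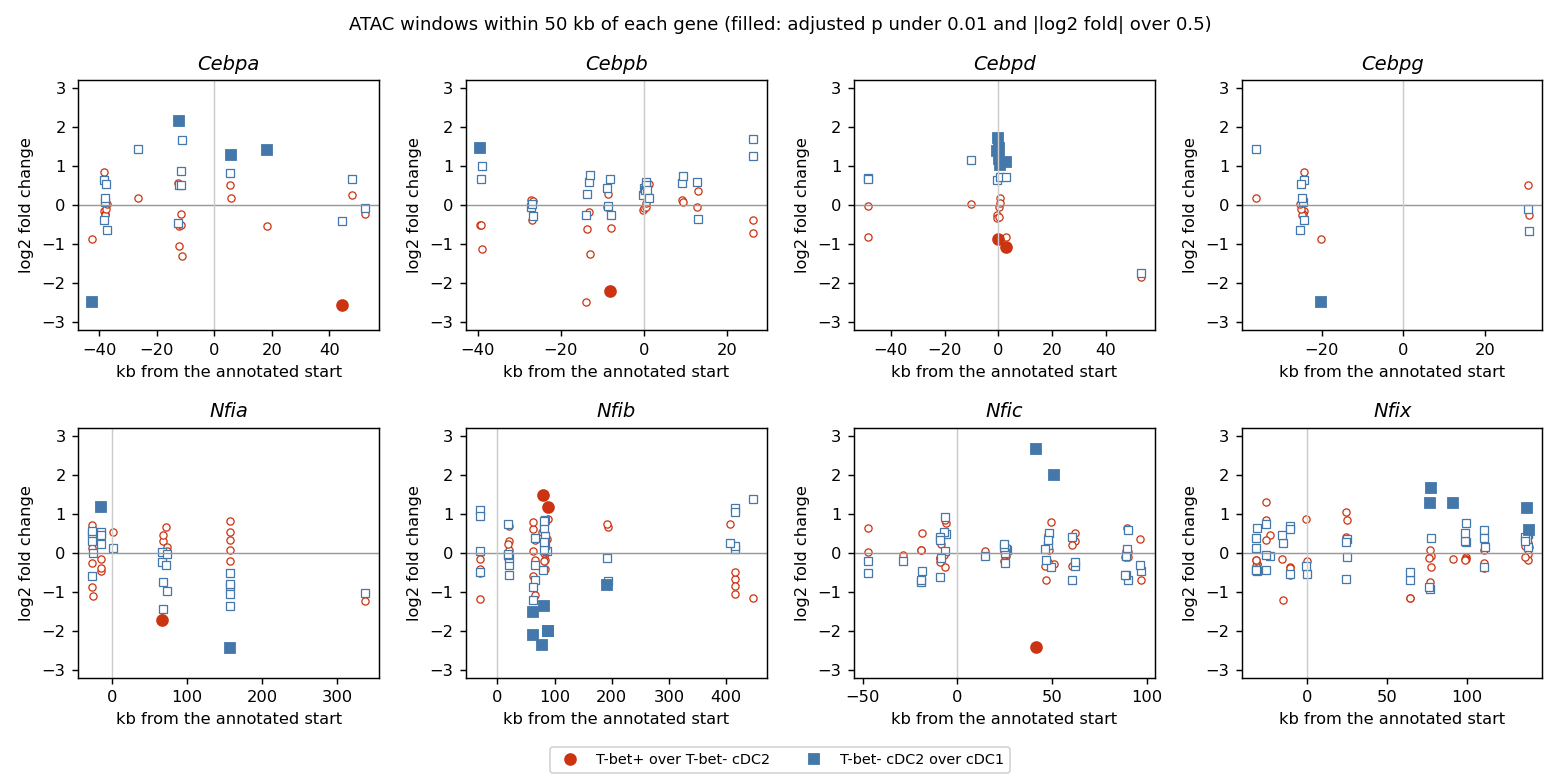
Log2 fold change of accessibility (linear axis) of the tested windows within 50 kb of each gene against distance in kb from its most upstream annotated start, for T-bet+ over T-bet- cDC2 (circles) and T-bet- cDC2 over cDC1 (squares). Filled symbols are called windows (adjusted p under 0.01, absolute log2 fold over 0.5). For T-bet- cDC2 over cDC1 they lie above 0 at the start of Cebpd and below 0 inside Nfib. The 2 called inside Nfib for T-bet+ over T-bet- cDC2 lie above 0.

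The NFI loci held windows in introns that moved in both directions. At Nfic the +41.6 kb window had counts of 36.9 and 54.4 in T-bet- cDC2, 6.70 and 10.1 in T-bet+ cDC2 and 5.23 and 9.20 in cDC1. T-bet- cDC2 stood above the other 2 subsets, which overlapped. The folds were -2.43 ± 0.44 for T-bet+ over T-bet- cDC2 (adjusted p = 3.1e-05) and 2.67 ± 0.46 for T-bet- cDC2 over cDC1 (adjusted p = 4.3e-06). This window holds the C/EBP match TTGCATAA shown above, the only match among the 44 windows within 50 kb of Nfic. Over all windows 5.89% held such a match. The +50.7 kb window, in an exon, was higher than in cDC1 in both cDC2 subsets, by 1.70 in T-bet+ and by 1.98 in T-bet- cDC2 (adjusted p = 0.00052 and 5.9e-05). The T-bet+ call was lost without cDC1 replicate 1 (adjusted p = 0.0134).

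Nfib had 39 windows, all of them closest to it, of which 0 were higher and 7 lower in T-bet- cDC2 than in cDC1. Over all windows 17.9% were called in either direction, so the number called was near the background. In T-bet+ cDC2 2 were higher and 4 lower than in cDC1 (background 23.0%). Nfib RNA had 2 counts in spleen cDC1 in all, fewer than in either cDC2 subset. The +77.4 kb window had 237 and 335 in cDC1, 55.4 and 55.3 in T-bet- cDC2 and 58.4 and 102 in T-bet+ cDC2. Both cDC2 subsets were below cDC1, by -2.37 ± 0.24 in T-bet- cDC2 (adjusted p = 7.7e-13) and by -1.83 ± 0.23 in T-bet+ cDC2 (adjusted p = 4.7e-10). At the +88.3 kb window the subsets separated in 3 levels, with 189 and 217 in cDC1, 117 and 111 in T-bet+ cDC2 and 39.1 and 61.5 in T-bet- cDC2. T-bet+ cDC2 was above T-bet- cDC2 there by 1.16 ± 0.25 (adjusted p = 0.00042). Without T-bet- cDC2 replicate 1 this fold was 0.894 with an adjusted p of 0.0514. The +80.1 kb window was highest in T-bet+ cDC2, at 85.2 and 68.1 against 30.4 and 25.0 in T-bet- cDC2 and 39.7 and 34.5 in cDC1, with folds of 1.47 ± 0.32 (adjusted p = 0.00049) and 1.04 (adjusted p = 0.0054). The call over T-bet- cDC2 was lost without T-bet- cDC2 replicate 2 (adjusted p = 0.0263) or T-bet+ cDC2 replicate 1 (adjusted p = 0.0136). The call over cDC1 was lost under DESeq2 (adjusted p = 0.0380), with library size only (adjusted p = 0.0256), and without either cDC1 replicate or T-bet+ cDC2 replicate 1 (adjusted p = 0.0259 to 0.0683).

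At Nfia the intronic +156.4 kb window had 80.5 and 82.8 in cDC1, 20.6 and 9.80 in T-bet- cDC2 and 5.75 and 10.1 in T-bet+ cDC2. Both cDC2 subsets were lower than cDC1, by -2.45 ± 0.37 in T-bet- cDC2 (adjusted p = 2.1e-07) and by -3.34 ± 0.41 in T-bet+ cDC2 (adjusted p = 2.9e-10). The +66.9 kb window was lower in T-bet+ cDC2, at 10.5 and 7.36 against 34.7 and 25.0 in T-bet- cDC2, a fold of -1.72 ± 0.45 (adjusted p = 0.0051). That call was lost under DESeq2 (adjusted p = 0.0528) and without T-bet- cDC2 replicate 1 or either T-bet+ cDC2 replicate. The start window at +0.64 kb was higher in T-bet+ cDC2 than in cDC1 by 0.66 ± 0.16 (adjusted p = 0.00066), a call lost with library size only (fold 0.48) and without either cDC1 replicate (adjusted p = 0.0148 and 0.0172), while Nfia RNA in spleen T-bet+ cDC2 was not called higher.

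At Nfix, whose RNA was highest in T-bet- cDC2, the intronic +77.4 kb window had 128 and 120 in T-bet- cDC2, 94.8 and 98.5 in T-bet+ cDC2 and 35.6 and 43.7 in cDC1. Both cDC2 subsets were higher than cDC1, by 1.65 ± 0.27 in T-bet- cDC2 (adjusted p = 9.3e-07) and by 1.29 ± 0.27 in T-bet+ cDC2 (adjusted p = 8.8e-05). The +91.0 kb window near another start of the gene had 84.7 and 100.7 in T-bet- cDC2, 72.8 and 93.0 in T-bet+ cDC2 and 40.8 and 35.6 in cDC1, with folds over cDC1 of 1.28 and 1.11 (adjusted p = 0.00028 and 0.0013). Without cDC1 replicate 2 both calls were lost, as was that of a subset without its own replicate 2 (adjusted p = 0.0107 to 0.0290). The cDC2 subsets overlapped at this window. Over cDC1, 3 of the 18 tested windows closest to Nfix were higher and 2 lower in T-bet+ cDC2 (background 23.0%). In T-bet- cDC2 3 were higher and 0 lower (background 17.9%). The 2 lower windows, at +64.2 and +64.1 kb in the same peak, had folds of -1.86 ± 0.50 and -1.66 ± 0.43 (adjusted p = 0.0024 and 0.0014). Both calls were lost under DESeq2 (adjusted p = 0.0411 and 0.0300) and without replicate 2 of cDC1 or of T-bet+ cDC2. Of the windows closest to Nfix 0 were called between T-bet+ and T-bet- cDC2.

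**Figure D4:**
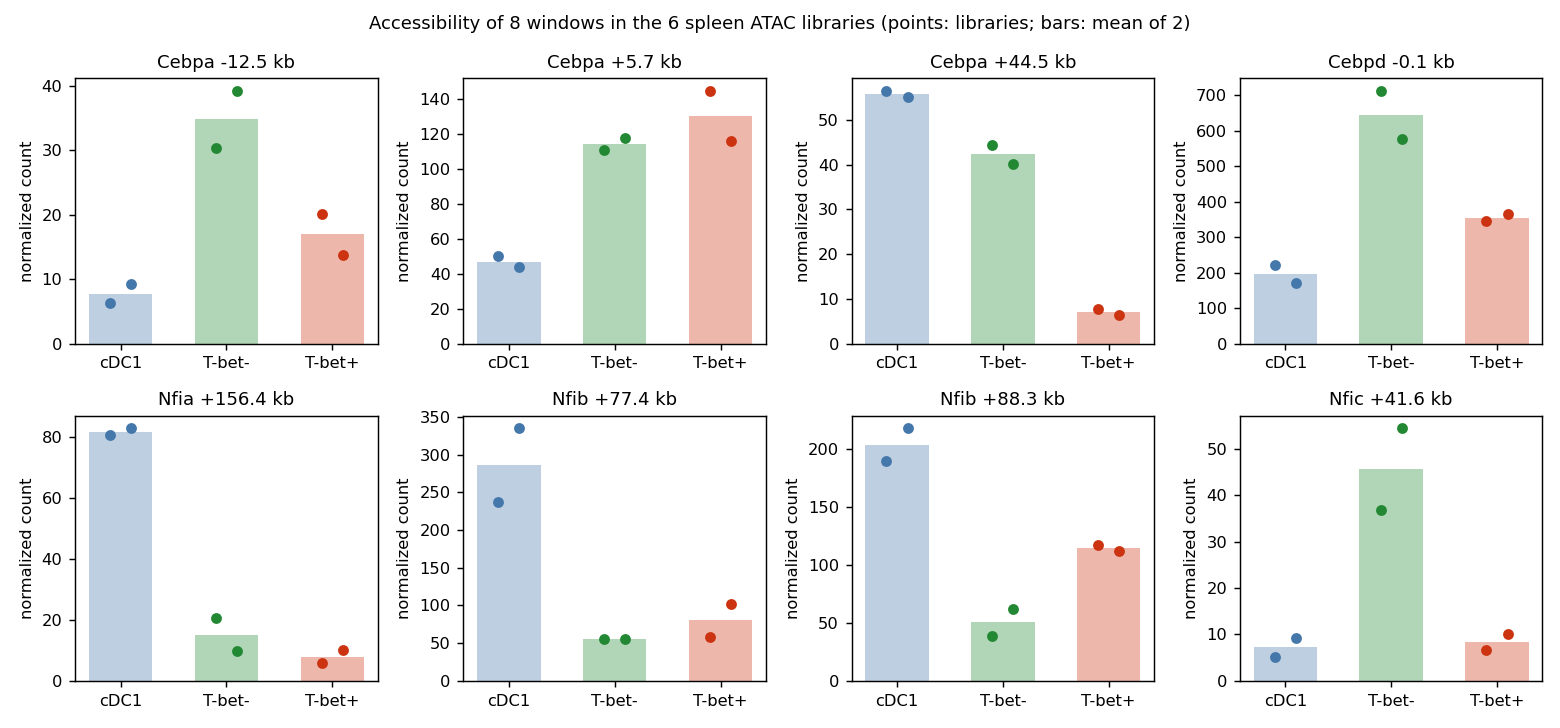
Normalized counts (linear axis from 0) of the 8 windows whose sequences are printed, in the 6 spleen ATAC libraries. Points are libraries and bars are the mean of 2; the -0.1 kb panel is the -63 bases window of Cebpd. T-bet- cDC2 is highest at Cebpd and at the intronic Nfic window, and T-bet+ cDC2 is near 0 at the Cebpa +44.5 kb window.

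The motifs of both families were counted over all windows, as letters on either strand. TTGCNNAA was found in 5.89% of the 177956 windows, TTGGC in 23.3% and the full NFI palindrome, which contains TTGGC on both strands, in 26 windows (0.0146%). The Runx motif TGTGGT was in 14.8% and the AP-1 motif TGANTCA in 7.90% of all windows. Among windows more accessible in T-bet- than in T-bet+ cDC2, 12.8% held the C/EBP motif (505 of 3931; Wilson 95% interval 11.8 to 13.9). The share was 5.04% among those more accessible in T-bet+ cDC2 (329 of 6529; 4.53 to 5.6) and 5.75% among windows not called. With a stricter call, an adjusted p under 0.001 and a log2 fold over 1, it was 16.7% among windows higher in T-bet- cDC2. Of windows higher in T-bet- cDC2 than in cDC1 10.4% held it, against 5.21% of those higher in cDC1. Of windows higher in T-bet+ cDC2 than in cDC1 6.85% held it, against 5.70% of those higher in cDC1. The C/EBP motif was thus most frequent in windows that were more accessible in T-bet- cDC2 in both comparisons.

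The NFI motif varied less. TTGGC was found in 25.3% of windows higher in T-bet- cDC2, 21.0% of those higher in T-bet+ cDC2 and 23.4% of those not called between them. The AP-1 motif, bound by other basic leucine zipper factors, was in 20.7%, 12.5% and 7.66% of the same sets, so the C/EBP motif was not the only one with a higher share in T-bet- cDC2. Mean GC content of the sets was 48.2%, 49.4% and 50.3%. Windows are not independent replicates and the intervals cover counting error only. A match is a description of letters and not a bound site.

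**Figure D5:**
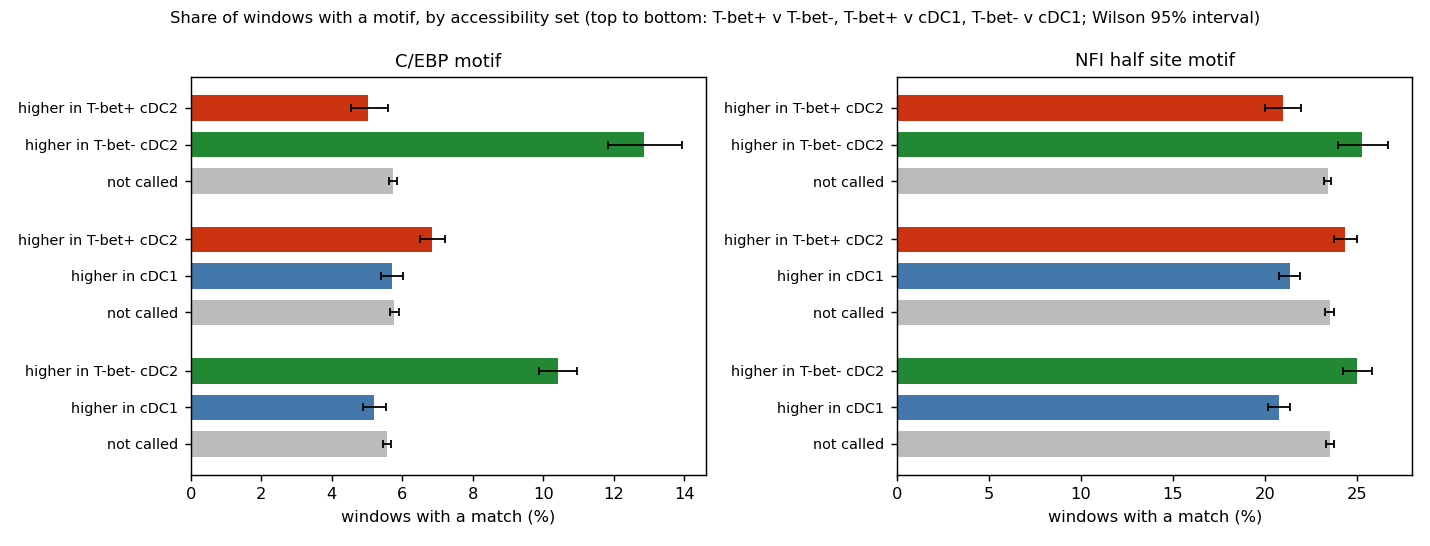
Percentage of windows with a C/EBP match (TTGCNNAA, left) or an NFI match (TTGGC, right), with Wilson 95% intervals, by accessibility set in the 3 comparisons. The C/EBP bar for windows higher in T-bet- cDC2 than in T-bet+ cDC2 is at 12.8%, and that for windows not called at 5.75%.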

How the data were processed

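RNA-seq and ATAC-seq libraries were grouped by the submitters' labels, which give RFP+ cells as T-bet+ and which were followed where 1 sentence of the study's methods gives the reverse. RNA was amplified with a SMARTer kit before library preparation, and the counting strand is not given in the sources used here, so antisense genes, which overlap all 8 members in the annotation (among them Gm45091 at Cebpa, Tmem189 at Cebpb, Spidr at Cebpd, Gm45095 at Cebpg, E130114P18Rik at Nfia, Gm11266 at Nfib, Gm16104 at Nfic and Lyl1 at Nfix), cannot be told apart from them. The deposited RNA values are raw read counts per gene, and the deposited ATAC values are raw counts per window of 150 bases around MACS2 summits on mm10, made by the authors. Their processing notes name HISAT2 2.1.0, Bowtie2 2.2.5, SAMtools 1.9, MACS2 2.1.1.20160309 and R 3.4.0. Peak intervals were used to place each window in the peak that held its centre, and the closest gene of a window was that of its peak. Deposited raw counts per peak were used only for the fits over whole peaks.

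Counts were tested with edgeR 4.0.16 (TMM, filterByExpr, quasi-likelihood F test, Benjamini-Hochberg adjustment over all features), separately for spleen, MLN, both tissues together (10 RNA comparisons) and ATAC (3 comparisons), with all subsets in a fit sharing the spread. RNA calls had an adjusted p under 0.05, ATAC calls under 0.01 with an absolute log2 fold over 0.5. CPM and normalized counts use TMM-scaled library sizes; CPM per kb divides by the union of exons. DESeq2 1.42.0 was the second tool. The scripts were tested on simulated counts. The genes, lists and windows were chosen with earlier results of these data known. Text names all 8 genes, up to 4 genes of a list per comparison by smallest adjusted p, the most similar genes by correlation and, per gene, the promoter window with the highest mean count, up to 3 called windows per comparison by absolute fold and the window closest to 37 kb downstream of Cebpa; other windows within 50 kb were named after their values were seen. Window and promoter sequences are from GRCm38 and its RefSeq promoters. Libraries of a group are called biological replicates by the study, and no pair of libraries held identical values. A gene of the B cell marker list is not reported here and was left out of its summed level. Same-numbered spleen cDC1 and T-bet+ cDC2 libraries deviated together in all 3 pairs (r = 0.11 to 0.17), a pairing seen in the data and not stated in the labels, and those of the other spleen comparisons did not (r = -0.49 to 0.015).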

Additional observations from a re-analysis of the deposited data

How the results depend on the processing

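The number of members called depended on the fit in most RNA comparisons. Between spleen T-bet+ and T-bet- cDC2, with 0 called, it was 1 under DESeq2, 1 with DESeq2 size factors and 2 without the low-count filter. It was 2 with the library class as a term and 4 with the library's GC correlation as a term. Over all genes 280 were called higher and 494 lower of 14377, with 565 and 847 of 17060 under DESeq2. Without the filter 753 and 768 of 31967 were called. With the class term 241 and 430 of 14377 were, and with the GC term 349 and 524. For spleen T-bet+ cDC2 over cDC1 it was 0, and 1 with the class term and 1 with the GC term. Over all genes 1434 were called higher and 1179 lower of 14377. With the class term 1783 and 1562 were, and with the GC term 1951 and 1650. For spleen T-bet- cDC2 over cDC1 it was 1, and 3 under DESeq2, 2 without the filter, 4 with the class term and 4 with the GC term. Over all genes 1388 were called higher and 891 lower of 14377, with 1781 and 1158 of 17678 under DESeq2. Without the filter 1703 and 1262 of 31967 were called. With the class term 1577 and 1167 of 14377 were, and with the GC term 1621 and 1229. In the MLN it was 1 under DESeq2 for T-bet+ over T-bet- cDC2 (110 genes higher and 238 lower of 15127). For T-bet+ cDC2 over cDC1 it was 1 under DESeq2 (1136 and 896 of 16676) and 1 without the filter (1300 and 957 of 27006). For T-bet- cDC2 over cDC1 the 1 call of Cebpa became 0 with DESeq2 size factors, the GC term or only the libraries compared. With the GC term 335 genes were called higher and 103 lower of 15298 there. Spleen over MLN gave 4 without the filter in cDC1, and 1 under DESeq2 and 1 without the filter in each cDC2 subset. Without the filter 1610 genes were called higher and 1787 lower of 34047 in cDC1. In T-bet- cDC2 1065 and 1370 were, and in T-bet+ cDC2 1402 and 1473. Under DESeq2 938 and 1305 of 16177 were called in T-bet- cDC2 and 1111 and 1690 of 15523 in T-bet+ cDC2. The cause was not tested.

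Replicate numbers went together in spleen for cDC1 and T-bet+ cDC2 (r = 0.11 to 0.17), where the replicate block changed no member's call, and in 2 MLN pairs of the same subsets (0.34 and 0.41). They did not for the other comparisons, with correlations of same-numbered deviations of -0.49 to 0.015 in spleen, -0.09 to 0.09 in the MLN and -0.037 to 0.019 in ATAC. The MLN T-bet- cDC2 libraries carry other numbers in their names than in their replicate labels. The correlations and the replicate block used the replicate labels, so the MLN values do not check pairing by name. With a replicate block 0 members were called for T-bet- cDC2 over cDC1 in spleen (Nfix, adjusted p = 0.0544) and 0 in the MLN, and 1 for spleen over MLN cDC1 (Cebpa lost, adjusted p = 0.0535).

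Leaving out 1 library at a time gave 0 to 1 calls for spleen T-bet+ over T-bet- cDC2, 0 to 1 for T-bet+ cDC2 over cDC1, 0 to 2 for T-bet- cDC2 over cDC1, 0 to 1 for MLN T-bet+ cDC2 over cDC1, 0 for MLN T-bet- cDC2 over cDC1, 0 to 4 for spleen over MLN cDC1 and 0 to 1 for spleen over MLN T-bet+ cDC2. Signs changed for values that were not called. Cebpd in T-bet+ over T-bet- cDC2 was -0.95 with the class term, -1.22 in the higher class alone, -0.48 with the GC term, and -0.31 to 3.38 with a library left out. Cebpg in the same comparison was -0.73 to 0.66. Nfix in T-bet+ cDC2 over cDC1 was -0.063 in the higher class alone and -0.29 to 0.30 with a library left out. In T-bet- cDC2 over cDC1, Cebpg was 0.31, 0.44 and 0.36 under the class term, the higher class alone and the GC term, and -1.35 to 0.17 with a library left out, Cebpd was -1.97 to 2.1 and Nfic -0.082 to 0.39.

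For ATAC the 25 windows called for T-bet+ cDC2 over cDC1 became 12 under the stricter call, 15 under DESeq2, 15 over whole peaks and 11 to 25 with a library left out. The 20 for T-bet- cDC2 over cDC1 became 11 over whole peaks, and T-bet+ over T-bet- cDC2 gave 3 to 6 with a library left out. The C/EBP share of windows higher in T-bet- than T-bet+ cDC2 was 16.7% under the stricter call. Genes under about 1 CPM (Cebpb, Nfia and Nfib in several libraries) rest on few counts.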
